A study of Mus musculus with 4 samples.

Results

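The members were the variable (V), diversity (D) and joining (J) segments of the mouse T cell receptor beta chain, taken as every row whose name starts with Trbv, Trbd or Trbj, with the constant regions left out and a mean of at least 1 RPKM over the libraries. There were 34 of them among 14220 named genes: 18 V, 2 D and 14 J segments. All 34 listed names had a single row and all passed the minimum, so none was dropped. RPKM is the number of reads divided by the length of the listed feature and by the library's depth.

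The data were RNA-seq of regulatory T (Treg) cells sorted from spleens of C57BL/6 mice. Treg cells are T cells that hold immune responses in check. Of the 4 libraries, 2 were wild type (WT). The other 2 carried a conditional knockout (cKO), in Treg cells, of the histone methyltransferase gene Nsd2. Each library pooled RNA from at least 3 mice, so a spread between replicates is one between pools, which may be partly technical. The labels used here do not name the Cre driver, the deleted exons, or the mice's age and sex. Foxp3, the transcription factor that defines Treg cells, stood at 144 and 128 RPKM (WT) and 145 and 113 RPKM (cKO), and Nsd2 stood at 6.82 and 7.44 RPKM (WT) and 3.46 and 4.27 RPKM (cKO).

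A T cell receptor beta chain is assembled in the thymus by the RAG recombinase, which joins a V, a D and a J segment into a single variable exon. That exon is then spliced to a constant region, Trbc1 or Trbc2. The D and J segments lie in a pair of clusters, each upstream of its own constant region: Trbd1 and the Trbj1 segments before Trbc1, and Trbd2 and the Trbj2 segments before Trbc2. Trbd1 can join to J segments of both clusters, and Trbd2 to those of the second. Each T cell clone carries its own rearrangement, so RNA from a pool of cells gives a usage summed over clones. A change in how many cells use a segment and a change in RNA per cell cannot be told apart here.

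The J segments are shown first because they carried most of the reads. All members lie on the plus strand of chromosome 6 in GENCODE M21 (GRCm38). Sequences below are those of GENCODE M21 transcripts, 5′ to 3′, for the 3 highest J segments, the highest of the first cluster, the lowest of all, and the member that RefSeq annotates as a pseudogene. Capitals mark a match to TTTGG or TTCGG followed by any 4 bases and GG, the codons of the phenylalanine-glycine motif found in the J part of antigen receptors.
Trbj2-7: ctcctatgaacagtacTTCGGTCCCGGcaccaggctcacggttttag
Trbj2-1: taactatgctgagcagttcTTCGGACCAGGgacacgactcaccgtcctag
Trbj2-5: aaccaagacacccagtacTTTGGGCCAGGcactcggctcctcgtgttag
Trbj1-2: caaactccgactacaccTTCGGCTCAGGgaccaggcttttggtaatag
Trbj1-7: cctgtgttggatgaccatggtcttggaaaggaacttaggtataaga
Trbj2-6: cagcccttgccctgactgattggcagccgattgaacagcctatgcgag
Trbj2-7 is at chr6:41543810-41543856, Trbj2-1 at chr6:41542754-41542803, Trbj2-5 at chr6:41543453-41543501, Trbj1-2 at chr6:41534001-41534048, Trbj1-7 at chr6:41535642-41535687 and Trbj2-6 at chr6:41543598-41543645. Over all J segments 11 of 14 held the motif on the sense strand and none on the other. The 3 without these letters were Trbj1-6, Trbj1-7 and Trbj2-6. Of the 18 V first exons, 0 held it on either strand. A match is a description of the letters and not of a product.

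The V rows were scaled to the length of the first exon, which encodes most of the leader peptide, and not to that of the whole segment. Reads per library were first estimated from the steps between values of the D and J rows, which are single exons, at 19515000 and 19150000 for WT replicates 1 and 2 and 19228000 and 21267000 for cKO replicates 1 and 2. At these depths all 64 D and J values were whole numbers of reads within 0.02, which partly restates how the depth was set. The V rows were not used for that estimate. With the length of the first exon, from the RefSeq start to the first splice site in GENCODE, all 69 V values above 0 came out whole within 0.02. With the spliced length of the segment 1 of 69 did (1.45%, where 4% would fall so near by chance). The first exons are 31 to 79 nt long. Whether reads on the second exon were counted too cannot be read from these values, so V levels are compared among V segments and not with J or D levels.

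The first exons below belong to the most abundant V segment and its family member, to a family pair that differed widely in level, and to the shortest feature among the V segments. In both pairs, capitals mark the bases that differ from the other member, aligned without gaps.
Trbv12-1: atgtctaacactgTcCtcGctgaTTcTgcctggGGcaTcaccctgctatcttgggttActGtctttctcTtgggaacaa
Trbv12-2: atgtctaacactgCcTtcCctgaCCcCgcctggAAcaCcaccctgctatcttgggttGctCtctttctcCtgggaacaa
Trbv13-2: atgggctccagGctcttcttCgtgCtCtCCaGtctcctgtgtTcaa
Trbv13-3: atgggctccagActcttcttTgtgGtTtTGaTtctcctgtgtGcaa
In Trbv20 the capitals mark the start codon.
Trbv20: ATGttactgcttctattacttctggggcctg
These first exons are at chr6:41113567-41113645 (Trbv12-1), chr6:41118864-41118942 (Trbv12-2), chr6:41121396-41121441 (Trbv13-2), chr6:41130147-41130192 (Trbv13-3) and chr6:41188273-41188303 (Trbv20). Trbv12-1 and Trbv12-2 differed at 12 of 79 positions, and Trbv13-2 and Trbv13-3 at 8 of 46. The sources used here do not say how reads that match more than 1 segment were treated, so the split between such relatives is uncertain.

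The D segments are shorter than a 50 nt read, so every read counted on them covers other sequence too. Capitals mark the G run before the last base of each.
Trbd1: gggacaGGGGGc
Trbd2: gggactGGGGGGGc
Trbd1 is at chr6:41533201-41533212 and Trbd2 at chr6:41542163-41542176.

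Among the J segments, the second cluster carried most of the level. It held 71.3% and 74.3% of the summed J RPKM in WT and 73.1% and 73.9% in cKO, with 7 segments in each cluster. Trbj2-7, the most 3′ J segment, was the highest in 4 of 4 libraries, at 502 and 464 RPKM (WT) and 477 and 417 RPKM (cKO). It alone held 23.4% ± 0.478 of the J sum (SD over 4 libraries).

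Below it, Trbj2-1 stood at 244 and 230 RPKM (WT) and 231 and 246 RPKM (cKO). Trbj2-5 stood at 231 and 250 RPKM (WT) and 248 and 220 RPKM (cKO). The ranges of these 2 segments overlapped, and each was above the other in 2 of 4 libraries. Trbj2-3 followed with 167 and 152 RPKM (WT) and 189 and 156 RPKM (cKO), and Trbj2-4 with 186 and 125 RPKM (WT) and 163 and 153 RPKM (cKO). The ranges over libraries did not overlap between Trbj2-7 and Trbj2-1, between Trbj2-5 and Trbj2-3, or between Trbj2-4 and Trbj1-2.

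All of the first cluster stood below those 5 segments. Trbj1-2 was at 111 and 91.4 RPKM (WT) and 86.7 and 111 RPKM (cKO). Its neighbours in the order, Trbj2-2, Trbj2-6, Trbj1-6, Trbj1-5 and Trbj1-3, had means from 97.3 down to 76.8 RPKM, and Trbj1-1 and Trbj1-4 had means of 66.8 and 65.1 RPKM. Neighbours within this stretch had overlapping ranges, so their order is not resolved. Trbj1-7 was the lowest in every library, with a mean of 46.2 RPKM and a range that did not meet that of the next segment. In all, 4 of 13 neighbouring pairs had ranges apart.

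The pseudogene Trbj2-6 was not at the bottom of the list. It stood at 108 and 101 RPKM (WT) and 101 and 68.6 RPKM (cKO), from 101, 93, 93 and 70 reads. It ranked from 7 to 11 of the 14 J segments in the separate libraries. Rearranged and unrearranged RNA cannot be told apart in these values.

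**Figure D1:**
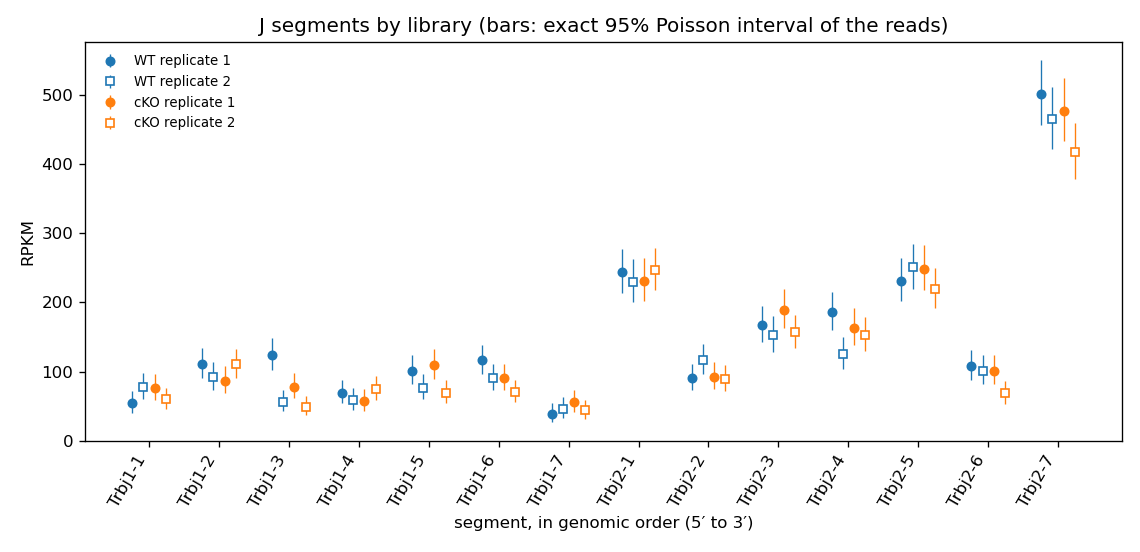
RPKM (y axis) of the 14 J segments in genomic order (x axis), with a point for each of the 4 libraries and bars for the exact 95% Poisson interval of the reads behind it (counting error only). Trbj2-7 is highest in all 4 libraries (417 to 502 RPKM), and the first cluster lies below Trbj2-1 and Trbj2-5 throughout.

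Among the V segments Trbv12-2 was the highest in 4 of 4 libraries. It stood at 93.4 and 57.5 RPKM (WT) and 73.1 and 67.9 RPKM (cKO), from 144, 87, 111 and 114 reads. RefSeq lists it under the older name Tcrb-V5.1. Its family member Trbv12-1 (older name Tcrb-V5.2) was lower in every library, at 23.4 and 18.5 RPKM (WT) and 23.0 and 23.2 RPKM (cKO).

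The Trbv13 family, whose products are known to immunologists as the V beta 8 chains, was uneven in these first-exon values. The split between such relatives is uncertain, as stated above, and the chains themselves were not measured. Reads were few for Trbv13-1 (5 and 8 in WT, 2 and 23 in cKO) and Trbv13-2 (13 and 0 in WT, 6 and 12 in cKO). Trbv13-3 was second by mean, at 59.0 and 35.2 RPKM (WT) and 67.8 and 48.0 RPKM (cKO). Trbv13-1 stood at 5.96 and 9.71 RPKM (WT) and 2.42 and 25.2 RPKM (cKO), with cKO replicate 2 apart from the rest. Trbv13-2 stood at 14.5 RPKM in WT replicate 1, was listed at 0 in WT replicate 2, and stood at 6.78 and 12.3 RPKM in cKO. The 0 allows up to 3 reads, or 3.41 RPKM.

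Trbv5, Trbv16 and Trbv14 completed the 5 V segments of highest mean RPKM among the 18 listed. Trbv5 was at 43.9 and 36.2 RPKM (WT) and 53.1 and 40.3 RPKM (cKO). Trbv16 was at 27.2 and 41.6 RPKM (WT) and 36.1 and 47.0 RPKM (cKO), so that replicate 2 was the higher in both genotypes. Trbv14 was at 36.6 and 24.5 RPKM (WT) and 38.2 and 33.6 RPKM (cKO). Together with Trbv12-2 and Trbv13-3 they held 51.9% ± 2.42 of the V sum (SD over 4 libraries).

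Trbv19, Trbv2 and Trbv29 came next. Trbv19 was at 30.3 and 27.7 RPKM (WT) and 32.9 and 28.8 RPKM (cKO), the V segment with the smallest spread relative to counting noise, a measure given further on. Trbv2 was at 30.3 and 29.8 RPKM (WT) and 28.7 and 24.9 RPKM (cKO). Trbv29 was at 23.0 and 24.5 RPKM (WT) and 38.2 and 23.99 RPKM (cKO), and is a pseudogene in the RefSeq table but a V gene in GENCODE. Below them, Trbv26, Trbv15 and Trbv4 had means of 26.6, 26.3 and 16.1 RPKM. Trbv20, Trbv23, Trbv17 and Trbv24 had means of 13.1, 5.49, 5.17 and 2.53 RPKM. Trbv24, the lowest, rested on 0, 3, 2 and 5 reads, and is a pseudogene in GENCODE but not in RefSeq.

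The order of the V segments was less resolved than that of the J segments. None of the 17 neighbouring pairs in the V order had ranges apart. Ranked by reads instead of RPKM, the first 4 were unchanged, and Trbv12-1, whose first exon is longer, moved from 11 to 5. Reads were also divided by the start positions from which a 50 nt read can overlap the first exon. On that scale the first 5 were as by RPKM, and Trbv12-1 ranked 9. Profiles of any 2 libraries had a Spearman correlation from 0.763 to 0.915 over the 18 V segments and from 0.789 to 0.908 over the 14 J segments. These are descriptions over segments, which share feature length and library. The level of a V segment had a Spearman correlation of 0.28 with its distance from the start of Trbd1 and 0.26 with the length of its first exon (18 segments, as a description).

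**Figure D2:**
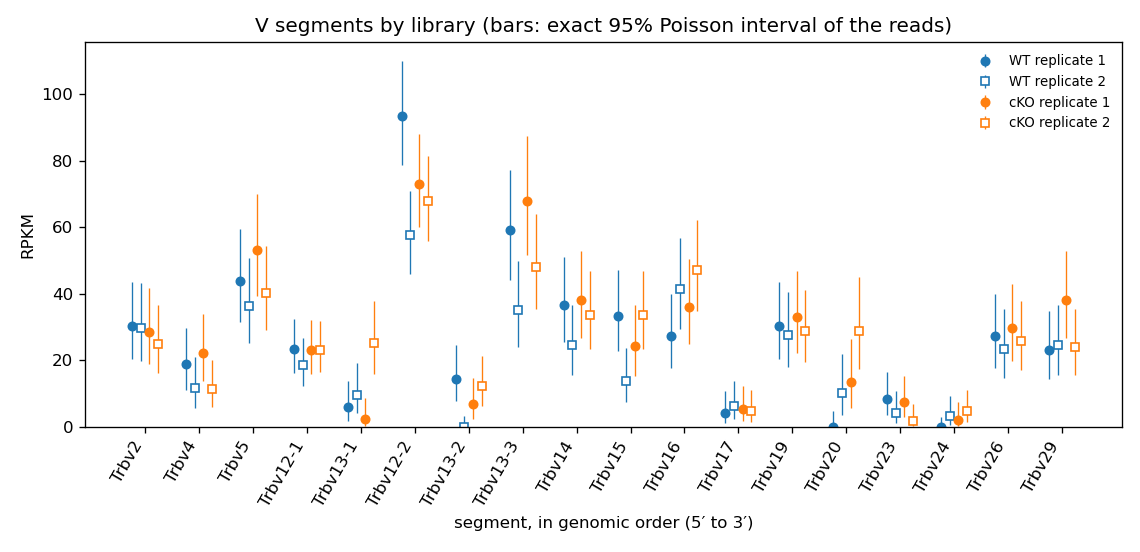
RPKM (y axis) of the 18 V segments in genomic order (x axis), with a point for each of the 4 libraries and bars for the exact 95% Poisson interval of the reads, or 3 reads above a 0 (counting error only). Trbv12-2 is highest in all 4 libraries (57.5 to 93.4 RPKM), and the bars of most neighbours in level overlap.

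RefSeq names 22 V segments and 13 V pseudogenes at this locus. The members covered 17 of the former and 1 of the latter. The other 5 V segments (Trbv1, Trbv3, Trbv21, Trbv30 and Trbv31) were not analysed here. A row under the name Tcrb-V13, which RefSeq gives as an older name of Trbv14, was no member. It stood at 5.96 and 3.64 RPKM (WT) and 1.21 and 3.28 RPKM (cKO). Its values were whole reads at a length of 43 nt, which is the first exon of Trbv13-1 and not that of Trbv14.

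The D segments had high RPKM from few reads. Trbd1 stood at 64.1 and 131 RPKM (WT) and 95.3 and 208 RPKM (cKO), from 15, 30, 22 and 53 reads, since 1 read on its 12 nt is worth 3.92 to 4.35 RPKM. In both genotypes replicate 2 was the higher. Trbd2 stood at 11.0 and 37.3 RPKM (WT) and 22.3 and 20.2 RPKM (cKO), from 3, 10, 6 and 6 reads. RPKM divides by the feature's length, while a read can overlap a feature this short from more start positions than its length. D values are therefore not comparable with those of long transcripts. The same limit holds, to a lesser degree, for the J segments (46 to 53 nt) and the V first exons (31 to 79 nt). It weighs more on the shorter ones, such as Trbv20, than on the Trbv12 pair.

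The spread between libraries was set against counting noise. The measure was the sum of squared deviations from the counts that depth predicts, each divided by that count, per degree of freedom, so that counting noise alone gives 1 on average. Its median was 1.67 over the V segments and 1.79 over the J segments. Trbj1-3 stood out at 14.9. It was at 124 and 56.4 RPKM (WT) and 78.0 and 48.9 RPKM (cKO), so replicate 1 was above replicate 2 in both genotypes. Trbv13-1 reached 7.96, Trbd1 7.45 and Trbv20 6.74. At the other end Trbv17 and Trbv19 were at 0.162 and 0.161, and Trbj2-1 was at 0.311 with 942 reads over the libraries. In all, 6 of 18 V, 1 of 2 D and 5 of 14 J segments were above 3.

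**Figure D3:**
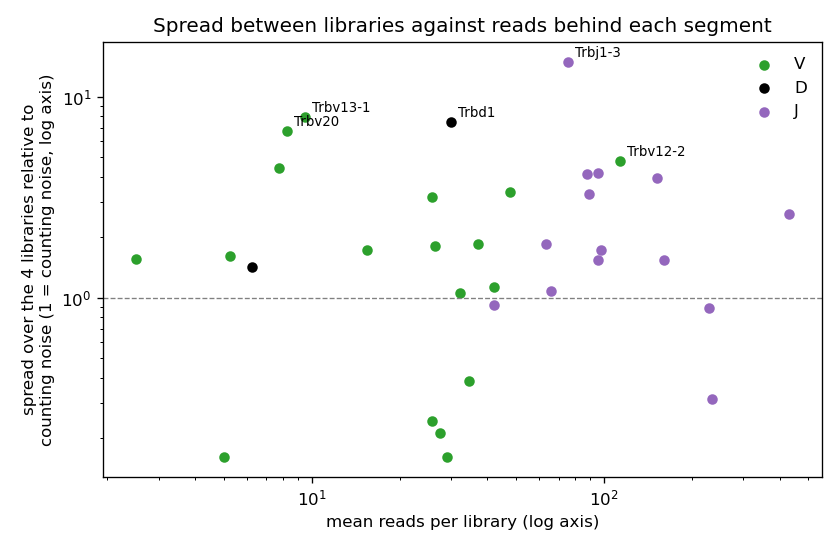
Spread over the 4 libraries relative to counting noise (y axis, log scale, dashed line at 1) against the mean reads per library (x axis, log scale) for the 34 segments, V in green, D in black and J in purple. Trbj1-3 lies highest at 14.9, and Trbv13-1, Trbd1 and Trbv20 lie at 6.74 to 7.96 with few reads.

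The comparison of cKO with WT asks whether receptor segments are used at other levels in Treg cells with the Nsd2 cKO. No segment passed the test. With limma on log2(RPKM + 1) over 10709 genes, adjusted p was under 0.05 for 0 of 34 members, as was unadjusted p for 0 of 34. Over all genes 0 were called (0%) and 332 (3.1%) had an unadjusted p under 0.05. Nsd2, the deleted gene, was thus not called either, so a lack of calls does not show unchanged levels. The log2 fold change was above 0 for 22 of 34 members (64.7%), against 59.2% of all genes, and its median was 0.07 against 0.03. The lowest unadjusted p among the members was 0.107, for Trbj1-6, and limma's adjusted p was 0.9998 for all of them.

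Groups did not overlap for 4 of 34 members (11.8%), against 26.4% of all genes tested. The share of the members was below the background. Both cKO libraries were above both WT libraries for 1 member (17.4% of all genes) and below them for 3 (9.06% of all genes). The segment that was higher was Trbv20. It was listed at 0 in WT replicate 1, stood at 10.1 RPKM in WT replicate 2 and at 13.4 and 28.8 RPKM in cKO, from 0, 6, 8 and 19 reads. The 0 allows up to 3 reads, or 4.96 RPKM. Its log2 fold change was 2.64 with a standard error of 1.41 (limma, unadjusted p = 0.148, adjusted p = 0.9998). It was 0.90 without WT replicate 1, 4.37 without WT replicate 2 and 4.29 with a pseudocount of 0.1.

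The segments that were lower in both cKO libraries were Trbj1-6, Trbj2-6 and Trbv2. Trbj1-6 stood at 116 and 90.6 RPKM (WT) and 90.3 and 70.1 RPKM (cKO). WT replicate 2 and cKO replicate 1 lay next to each other with 92 reads each, and the log2 fold change was -0.36 with a standard error of 0.19. For Trbj2-6 it was -0.33 with a standard error of 0.20, and its WT replicate 2 and cKO replicate 1 had 93 reads each. For Trbv2 it was -0.16 with a standard error of 0.13, from 29, 28, 27 and 26 reads. Without cKO replicate 2 the log2 fold change was -0.18 for Trbj1-6, -0.0512 for Trbj2-6 and -0.0677 for Trbv2, and without cKO replicate 1 it was -0.54, -0.60 and -0.26. Trbj1-6 also moved to -0.19 without WT replicate 1.

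**Figure D4:**
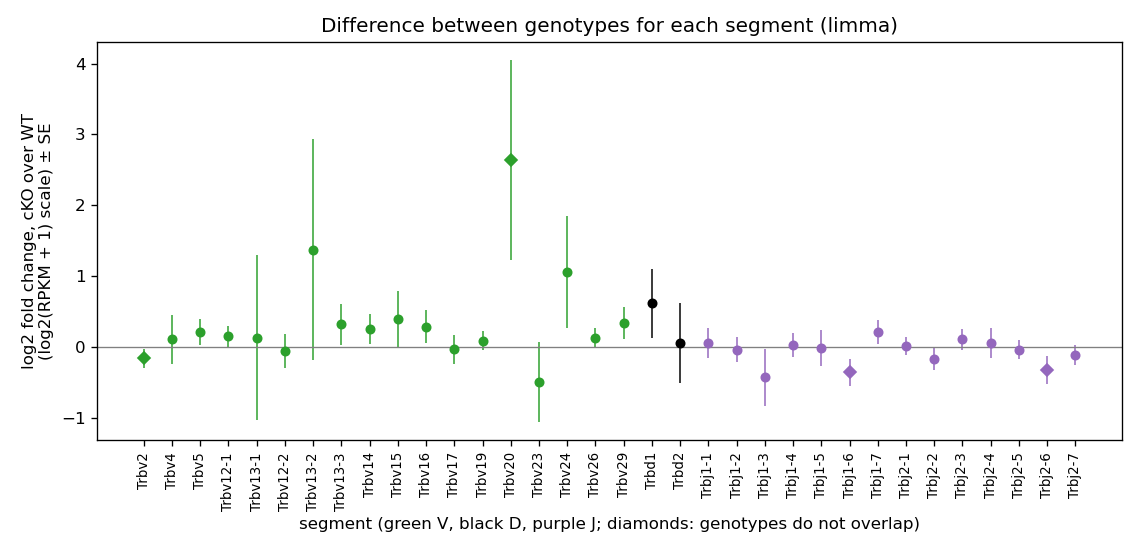
Log2 fold change of cKO over WT on the log2(RPKM + 1) scale with its standard error (y axis) for the 34 segments (x axis; V green, D black, J purple), with diamonds where the genotypes do not overlap. J segments lie between -0.43 and 0.21, and the widest bars belong to the V segments with a library at 0 or few reads.

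The calls depended on which library was left out, in fits where a genotype kept 1 library, whose variance was taken from the other genotype. Over all genes limma called 66 and 40 when WT replicate 1 or 2 was dropped, and 21 and 65 when cKO replicate 1 or 2 was. Without WT replicate 1 limma called Trbv13-2 (log2 fold change 3.35, adjusted p = 7.23e-31) and Trbv15 (0.997, adjusted p = 0.00825). Without WT replicate 2 it called 5 members, namely Trbv20, Trbv24, Trbd1, Trbd2 and Trbj1-3. Trbv13-1 was called in opposite directions, higher without cKO replicate 1 (log2 fold change 1.60, adjusted p = 8.47e-05) and lower without cKO replicate 2 (-1.34, adjusted p = 0.000476). Reads over the 4 libraries ran from 10 for Trbv24 to 302 for Trbj1-3 among these segments, and 3 of them had a library at 0.

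The summed level of all V segments was 480 and 378 RPKM (WT) and 505 and 487 RPKM (cKO), from 522, 392, 522 and 547 reads. WT replicate 2 was apart from the other 3 libraries. The cKO mean was 1.16 times the WT mean (496 ± 13.1 against 429 ± 71.7 RPKM, SD, n = 2 each). The log2 ratio of 0.21 had a two-sided exact permutation p of 0.333, the smallest that 2 against 2 can give. Without WT replicate 2 the log2 ratio was 0.05, without WT replicate 1 it was 0.39, and with median-of-ratios scaling it was 0.17 with groups that overlapped (exact permutation p = 0.667).

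The summed level of all J segments was 2144 and 1937 RPKM (WT) and 2055 and 1828 RPKM (cKO). Replicate 1 was the higher in both genotypes, and the groups overlapped. The log2 ratio was -0.07 (exact permutation p = 0.667, two-sided, smallest possible 0.333), and without cKO replicate 2 it was 0.01. The first cluster summed to 615 and 498 RPKM (WT) and 553 and 478 RPKM (cKO), and the second to 1528 and 1440 RPKM (WT) and 1502 and 1350 RPKM (cKO). The share of the second cluster was 72.8% ± 2.13 in WT and 73.5% ± 0.538 in cKO (SD, n = 2 each, two-sided exact permutation p = 1).

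Usage profiles were on average no closer within a genotype than between genotypes. The distance between 2 libraries was the percent of the V sum that would have to move between segments to make their profiles equal. It averaged 12.5% over the 4 pairs of a WT and a cKO library and 15.4% over the 2 pairs within a genotype (exact permutation p = 1, one-sided for a larger distance between genotypes, smallest possible 0.333). For the J segments the averages were 6.35% and 6.72% (exact permutation p = 1). The 5 V segments of highest mean RPKM held 54.2% and 51.6% of the V sum in WT and 53.1% and 48.7% in cKO (difference in means -1.996 percentage points, two-sided exact permutation p = 0.667).

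Other genes of the receptor were followed through lists that were not picked for how they moved, although earlier results of these data were known. Of the constant regions, Trbc1 stood at 68.0 and 65.3 RPKM (WT) and 79.1 and 114 RPKM (cKO), with a log2 fold change of 0.50 and a standard error of 0.19 (limma, unadjusted p = 0.0431, adjusted p = 0.9998). Trbc2 stood at 126 and 118 RPKM (WT) and 116 and 118 RPKM (cKO). Trbc1 and Trbc2 are near-identical copies, so the split between them is uncertain. Their sum was 194 and 184 RPKM (WT) and 195 and 232 RPKM (cKO).

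The CD3 chains, which carry the receptor's signal, numbered 4. Of these 0 were called and 1, Cd247, did not overlap between genotypes (26.4% of all genes tested), at 102 and 102 RPKM (WT) and 104 and 106 RPKM (cKO). The constant region of the alpha chain, Trac, stood at 35.4 and 37.6 RPKM (WT) and 36.8 and 35.4 RPKM (cKO). Of 54 alpha J segments 0 were called, 2 were higher and 13 lower without overlap, and of 7 alpha V segments 0 were called, 2 were higher and 3 lower (all genes tested: 17.4% higher and 9.06% lower). Of the recombination machinery 7 of 11 genes were tested and 0 called. Dntt, which adds bases at the joints, was under 0.4 RPKM in every library, while Rag1 and Rag2 were not analysed here. Of 10 transcription factors known to act at the locus 0 were called, and 3 were lower and 0 higher without overlap. Over all genes tested 9.06% were lower and 17.4% higher. The 3 lower factors were Runx1, with a log2 fold change of -0.21, Ets1 with -0.16 and Tcf7 with -0.02.

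Markers of other cells were present, at levels that differed between genes. Cd8a was at 0.149 to 0.394 RPKM, Cd8b1 at 5.22 to 6.91, Nkg7 at 7.96 to 12.7 and Ccl5 at 4.71 to 11.8 RPKM. Klrb1c and Klrd1 reached at most 0.577 and 0.364 RPKM. Of the 3 tested, Ccl5 was higher and Cd8b1 lower in cKO without overlap (all genes tested: 17.4% higher and 9.06% lower). The summed CD8 T and NK cell markers were at 27.4 and 20.4 RPKM (WT) and 26.3 and 31.7 RPKM (cKO), with 6 of 7 genes listed. The gamma constant regions Tcrg-C1, Tcrg-C2 and Tcrg-C4 summed to 7.14 and 13.6 RPKM (WT) and 12.0 and 13.1 RPKM (cKO). The delta constant region Tcrd-C stood at 5.88 and 5.61 RPKM (WT) and 2.61 and 3.88 RPKM (cKO). Tcrd-C was thus lower in cKO without overlap, as were 9.06% of all genes tested. Of 7 B cell markers 3 were listed, and they summed to 8.46 and 6.78 RPKM (WT) and 11.7 and 10.8 RPKM (cKO). All 3 were higher in cKO without overlap, as were 17.4% of all genes tested. The erythroid markers (4 of 5 listed) summed to 24.3 and 11.4 RPKM for WT replicates 1 and 2. For cKO replicates 1 and 2 they summed to 42.7 and 7.32 RPKM, so replicate 1 was the higher in both genotypes. The myeloid markers summed to 3.58 and 5.31 RPKM (WT) and 9.95 and 3.73 RPKM (cKO), highest in cKO replicate 1. C1qb, Csf1r and Adgre1 were highest there, while Lyz2 was highest in WT replicate 2 and Itgax in cKO replicate 2. The NKT cell markers summed to 42.6 and 48.7 RPKM (WT) and 45.4 and 60.1 RPKM (cKO). Most of this came from Slamf6 (42.2 to 59.5 RPKM), while Zbtb16 reached at most 0.153 RPKM and Klrb1c at most 0.577. Plasma cell markers summed to 32.3 and 33.6 RPKM (WT) and 33.1 and 29.0 RPKM (cKO). Here Xbp1 gave most (28.7 to 33.3 RPKM), while Jchain and Sdc1 reached at most 0.273 and 0.204 RPKM. The part of such cells in the segment values was not tested.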

How the data were processed

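RNA-seq of 4 libraries of sorted splenic Treg cells was used, 2 WT and 2 cKO, grouped by the labels. The authors deposited RPKM values per RefSeq transcript or segment. Column totals and whole-read steps gave the unit. The submitters' processing notes name HISAT2, DESeq2 and mm10, with no version or role. The sources used here do not state the counter, its use of strand, the handling of reads with several matches, or a row filter. The members and gene lists were chosen with earlier results of these data known.

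Of 19291 rows, 1169 without a gene name were left out. Each gene was represented by its row of highest mean. Those with a mean of 1 RPKM or more, 10709 in number, entered limma 3.58.1 under R 4.3.3. It was run on log2 of RPKM plus a pseudocount of 1, with genotype as the single term, a mean-variance trend, robust moderation and Benjamini-Hochberg adjustment (two-sided, threshold 0.05). This scale understates changes of low values. The limma code was tested on simulated data with equal noise for every gene, which does not measure its power in these libraries. Reads per value were RPKM times feature length times depth (19150000 to 21267000 reads). Poisson intervals and floors (3 reads for a 0) cover counting error only. By the naming rule every member is named, and the 8 of highest mean share and those whose genotypes do not overlap get their value in each library. Other members were given per library after their values were seen. Alternatives were another scaling, pseudocount, filter and moderation, a replicate block, and each library left out. Figures were drawn with matplotlib 3.10.9.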

Additional observations from a re-analysis of the deposited data

How the results depend on the processing

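Scaling, pseudocount 0.1, no filter and plain moderation left 0 genes and 0 members called by limma. With the replicate block 1 gene and 0 members were called. The differences between replicates 1 and 2 in WT and cKO had r = 0.503 across genes, but 2 pairs do not show that the numbers pair the samples, and no label says so. Leaving out a library gave 21 to 66 genes called, 1 to 5 members called and 17 to 21 members without overlap, where a single library faces 2. For the fits without a library, no share of all genes without overlap is given here. The 17 to 21 members therefore have no background to be set against. Nor can they be compared with the main fit, where 2 libraries face 2. In the balanced layout of all 4 libraries the replicate block leaves each fold change as it was and alters its error alone. With the pseudocount no member's sign changed. With median-of-ratios scaling Trbj1-4 turned to -0.0125 and Trbj2-1 to -0.0272. Over the left-out libraries the log2 ratio of the V sum ran from 0.0477 to 0.39, that of the J sum from -0.16 to 0.010, the top 5 V share difference from -4.22 to 0.23 percentage points, the second J cluster's share difference from -0.82 to 2.19, and the J distance difference from -1.78 to 0.55. The V distance difference kept its sign, also with shares from reads or from reads per start position, both chosen after seeing the data. The sign of 23 members turned in at least 1 of these fits, and their log2 fold changes ran as follows: Trbd2 from -0.79 to 0.89, Trbj1-1 from -0.20 to 0.30, Trbj1-2 from -0.21 to 0.13, Trbj1-3 from -0.99 to 0.13, Trbj1-4 from -0.17 to 0.22, Trbj1-5 from -0.33 to 0.31, Trbj2-1 from -0.0357 to 0.0574, Trbj2-2 from -0.35 to 0.0106, Trbj2-3 from -0.0296 to 0.24, Trbj2-4 from -0.24 to 0.34, Trbj2-5 from -0.13 to 0.0458, Trbv12-1 from -0.0133 to 0.31, Trbv12-2 from -0.40 to 0.29, Trbv13-1 from -1.34 to 1.60, Trbv13-2 from -0.61 to 3.35, Trbv13-3 from -0.0473 to 0.68, Trbv14 from -0.0301 to 0.53, Trbv15 from -0.22 to 0.997, Trbv16 from -0.0123 to 0.58, Trbv17 from -0.29 to 0.22, Trbv19 from -0.00968 to 0.18, Trbv23 from -1.27 to 0.26 and Trbv4 from -0.34 to 0.55. The cause of these shifts was not tested.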
